A study of Mus musculus with 8 samples.

Results

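The 33 genes described here are markers and working parts of astrocytes, measured in the hippocampus of 3-month-old Ts1Cje and wild-type mice. They were taken by name from a list of astrocyte genes, through the RefSeq accession of their array probes, and their values were not part of that rule. The list was chosen with earlier results of these data known, so its counts are described without a test. They are 33 of the 20660 named genes on the array, and all 33 were among the 24025 features tested. Each group had 4 arrays, 1 per mouse, and the strain label of both groups is C57BL6/J. Ts1Cje mice, a model of Down syndrome, hold 3 copies of a distal stretch of mouse chromosome 16 and lack the tip of 1 copy of chromosome 12, and 1 Sod1 copy is disrupted. The wild-type mice are disomic littermates, with 4 pairs of a Ts1Cje and a wild-type mouse in all, and the labels used here give neither the sex of a mouse nor which arrays form a pair. None of the 33 genes lies on chromosome 16, and only Ntsr2 lies on chromosome 12, outside the deleted tip, so none lies in a stretch whose copy number differs between the genotypes.

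Astrocytes clear glutamate from synapses and return it to neurons as glutamine, buffer potassium and water through their endfeet on blood vessels, store the brain's glycogen, and supply lipid particles to other cells. They are joined into networks by connexin gap junctions. When tissue is injured or inflamed they become reactive, a state long followed by the filament protein Gfap. The comparison asks whether the levels of these genes differ between Ts1Cje and wild-type hippocampus. The tissue was measured in bulk, so a change in the number of astrocytes and a change in RNA per astrocyte cannot be told apart. Nor can either be told from a change in other cells that hold the same RNA, which applies to the further lists as well.

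All 8 arrays lay on 1 slide and were scanned together, with between 59.93% and 63.09% of the 55681 probes well above background and no saturated spot. Replicates 1 and 2 of both groups shared 1 row of the slide, and replicates 3 and 4 shared the other. Wild-type arrays filled columns 1 and 3 and Ts1Cje arrays columns 2 and 4, so column and genotype cannot be told apart. Every one of the 33 genes was well above background on all 8 arrays, as were the markers that define astrocytes (Gfap, Aqp4, Slc1a2, Slc1a3, Gja1 and Aldh1l1). Levels below are log2 of the processed signal after subtraction of the 75th percentile of the array, and differences are Ts1Cje minus wild-type on that log2 scale. The brightness of a spot depends on its probe, so levels are compared between arrays and never between genes. Wild-type replicate 3 stood apart over the whole array, with the highest or lowest value of the 8 arrays at 44.8% of all features.

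No astrocyte gene passed an adjusted p of 0.05 in the comparison of Ts1Cje with wild-type (0 of 33 genes, against 0.196% of all features tested). Their limma adjusted p ranged from 0.188 to 0.997. At an unadjusted p under 0.05 there were 6 of the 33 genes (18.2%), against 8.73% of all features. Of these, 5 genes were lower in Ts1Cje (15.2%, against 4.57% of all features), namely Mfge8, Ppp1r3c, Mlc1, Gja1 and Clu, and 1 was higher (3.03%, against 4.15%), namely Ntsr2. The same 5 genes were the ones at which all 4 Ts1Cje arrays lay below all 4 wild-type arrays (background 3.7%), and Ntsr2 was the one at which they lay above (background 2.42%). The estimates leaned to one side, with 26 of 33 genes below 0 (78.8%, against 52.7% of all features), but most were small. Their median was -0.07, beside -0.0072 over all features.

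For most of the astrocyte genes the arrays were precise enough to bound the difference. The moderated 95% interval lay within 1.5-fold in either direction for 30 of the 33 genes (90.9%, against 86.5% of all features). The exceptions were Mfge8 and Fgfr3, whose intervals reached further on the low side, and Agt, which varied most among the Ts1Cje arrays.

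**Figure D1:**
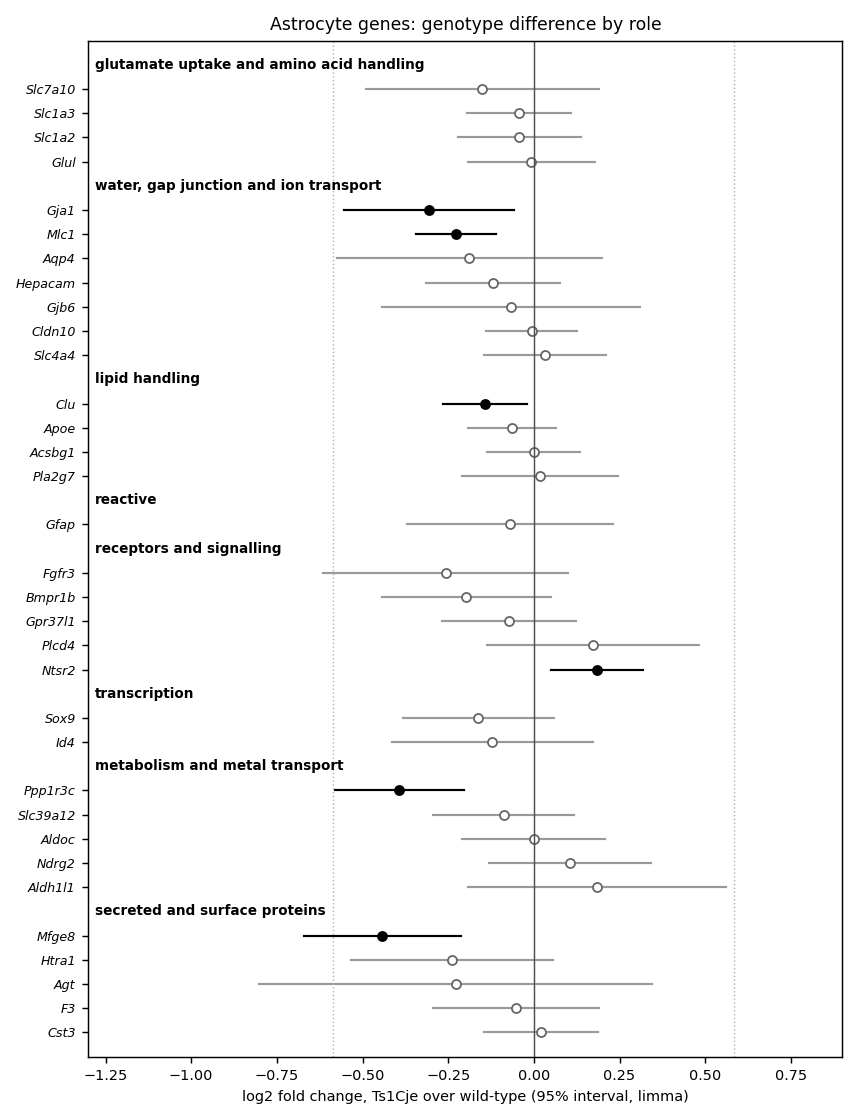
Log2 difference between Ts1Cje and wild-type hippocampus for each of the 33 astrocyte genes (x axis), grouped by role, with points for the estimates and bars for the moderated 95% intervals of 4 against 4 arrays. Of the points, 26 lie left of 0, and the intervals of Mfge8, Ppp1r3c, Mlc1, Gja1 and Clu lie wholly left of 0 while that of Ntsr2 lies wholly right of it.

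The gene with the smallest p among the 33 was Ppp1r3c, which brings protein phosphatase to glycogen and so promotes glycogen synthesis. It stood at 2.01, 2.18, 2.19 and 2.39 on the Ts1Cje arrays (replicates 1 to 4) and at 2.58, 2.67, 2.49 and 2.60 on the wild-type arrays. The groups do not overlap, and the Ts1Cje mean was 0.762 times that of wild-type, a difference of -0.39 (SE 0.08, 95% interval -0.58 to -0.20, limma adjusted p = 0.188). In the slide row of replicates 1 and 2 the difference was -0.53, and in that of replicates 3 and 4 it was -0.26.

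The largest difference belonged to Mfge8, a secreted protein that bridges phosphatidylserine on dying cells and debris to phagocytes. Its Ts1Cje arrays stood at 6.21, 5.82, 5.78 and 5.91, and its wild-type arrays at 6.25, 6.42, 6.44 and 6.39. Ts1Cje replicate 1 came close to the lowest wild-type array, while the other Ts1Cje arrays lay well below it. The difference was -0.44 (SE 0.10, 95% interval -0.67 to -0.21), which is a level 0.736 times that of wild-type (limma adjusted p = 0.230). Without Ts1Cje replicate 1 the difference was -0.54 with a limma adjusted p of 0.0491, past the threshold. Within the rows of the slide it was -0.32 and -0.57.

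Mlc1 encodes a membrane protein at the contacts between astrocyte endfeet, where it acts in volume regulation. It gave 5.42, 5.47, 5.55 and 5.50 in Ts1Cje against 5.67, 5.69, 5.80 and 5.69 in wild-type. The arrays of each group were close together and the groups were separate, with SDs of 0.05 and 0.06 (n = 4 each). The difference was -0.23 (SE 0.05, 95% interval -0.34 to -0.11, limma adjusted p = 0.230), and it was nearly the same in both rows of the slide, at -0.23 and -0.22.

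Gja1, the main connexin of astrocyte gap junctions, stood at 0.25, 0.45, 0.57 and 0.59 in Ts1Cje and at 0.64, 0.71, 1.03 and 0.70 in wild-type. Each of these values averages 10 spots of 1 probe. The groups are separate, but Ts1Cje replicate 4 came close to wild-type replicate 1, and wild-type replicate 3 stood far above the others of its group. The difference was -0.31 (SE 0.11, 95% interval -0.56 to -0.06, limma adjusted p = 0.487), at -0.32 and -0.29 within the rows. It was -0.23 without Ts1Cje replicate 1, where the unadjusted p no longer passed 0.05, and -0.22 without wild-type replicate 3.

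Clu, the lipid carrier clusterin, showed the smallest of the 5 lower estimates. It stood at 7.78, 7.65, 7.65 and 7.76 in Ts1Cje and at 7.87, 7.91, 7.80 and 7.82 in wild-type. No array overlaps, but the highest Ts1Cje and the lowest wild-type array are nearly level. The difference was -0.14 (SE 0.05, 95% interval -0.26 to -0.02, limma adjusted p = 0.509), which is 0.906 times wild-type. Its unadjusted p passed 0.05 in 13 of 18 alternative analyses, where Ppp1r3c, Mfge8 and Mlc1 passed in 18 and Gja1 and Ntsr2 in 17. The alternatives reuse the arrays by which these genes were singled out, so the counts are not separate evidence.

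Ntsr2, a neurotensin receptor carried by astrocytes, was the gene with the largest increase among the 33. It stood at 4.61, 4.69, 4.76 and 4.82 in Ts1Cje and at 4.54, 4.58, 4.47 and 4.55 in wild-type. Every Ts1Cje array was brighter than every wild-type array, by 0.18 on average (SE 0.06, 95% interval 0.05 to 0.32, 1.14-fold, limma adjusted p = 0.434). A second probe of Ntsr2 gave 0.16 (SE 0.05). Within the rows of the slide the difference was 0.09 and 0.28.

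**Figure D2:**
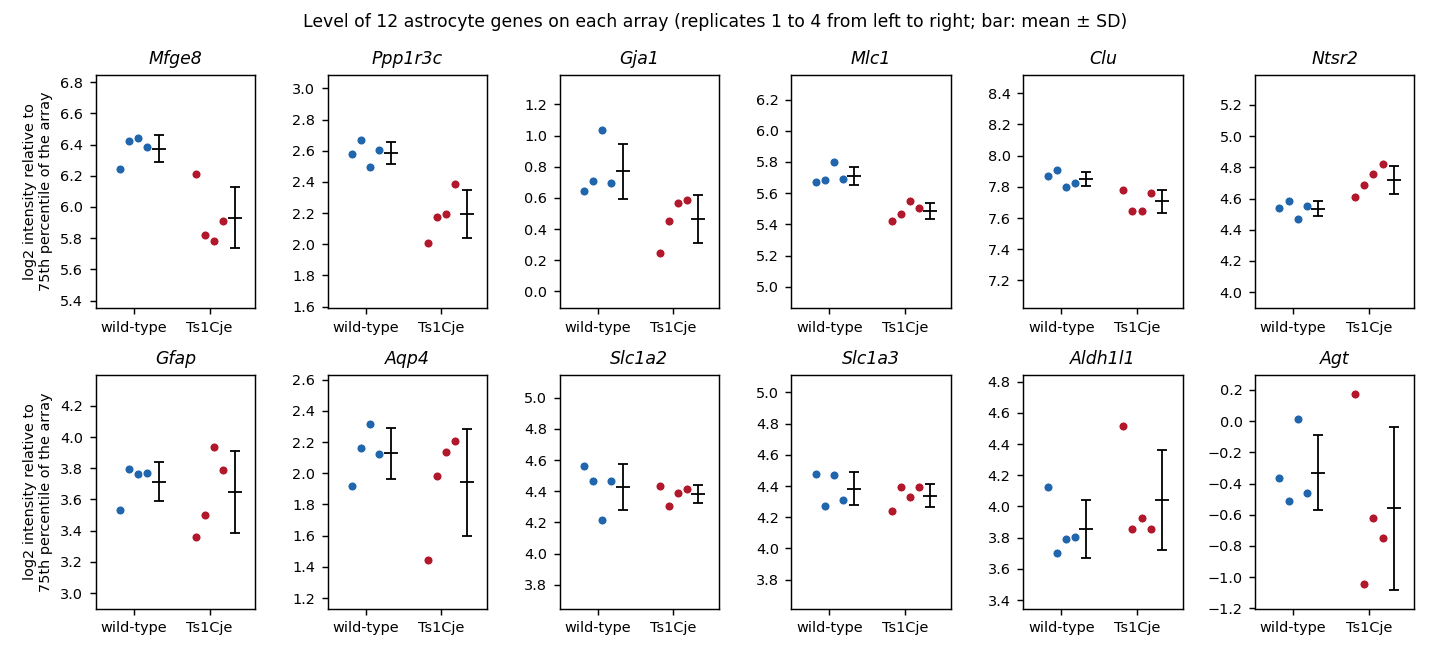
Level of 12 astrocyte genes on each of the 8 arrays (y axis, log2 intensity minus the array's 75th percentile, shifted for each gene), with blue points for wild-type and red points for Ts1Cje, replicates 1 to 4 from left to right, and bars for mean and SD. The Ts1Cje points of Ppp1r3c, Mfge8, Mlc1, Gja1 and Clu lie below every wild-type point, those of Ntsr2 lie above, and those of Gfap, Aqp4, Slc1a2, Slc1a3, Aldh1l1 and Agt overlap with wild-type.

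The sequences upstream of the genes whose groups did not overlap are shown because these are the members the comparison separates; Clu had no entry. Each is the 250 bases before the annotated start from RefSeq (GRCm38.p6), on the strand of the gene, with motif matches in capitals. Ppp1r3c is at chr19:36736605-36736854 (minus strand), Mfge8 at chr7:79149061-79149310 (minus), Mlc1 at chr15:88978554-88978803 (minus), Gja1 at chr10:56377050-56377299 (plus) and Ntsr2 at chr12:16653220-16653469 (plus).
Ppp1r3c: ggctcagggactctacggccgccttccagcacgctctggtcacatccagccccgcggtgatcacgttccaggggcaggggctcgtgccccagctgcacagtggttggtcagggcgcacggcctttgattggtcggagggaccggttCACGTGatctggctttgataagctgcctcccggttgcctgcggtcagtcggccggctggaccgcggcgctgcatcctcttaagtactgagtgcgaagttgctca
Mfge8: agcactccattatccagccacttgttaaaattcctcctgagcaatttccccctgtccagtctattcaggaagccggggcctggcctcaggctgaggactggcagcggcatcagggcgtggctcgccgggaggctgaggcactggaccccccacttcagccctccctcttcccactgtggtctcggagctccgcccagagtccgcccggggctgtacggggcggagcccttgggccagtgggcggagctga
Mlc1: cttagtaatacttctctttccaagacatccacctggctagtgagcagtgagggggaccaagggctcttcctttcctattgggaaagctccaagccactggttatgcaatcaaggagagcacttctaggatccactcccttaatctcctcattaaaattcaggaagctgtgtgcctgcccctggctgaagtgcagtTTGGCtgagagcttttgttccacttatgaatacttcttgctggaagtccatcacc
Gja1: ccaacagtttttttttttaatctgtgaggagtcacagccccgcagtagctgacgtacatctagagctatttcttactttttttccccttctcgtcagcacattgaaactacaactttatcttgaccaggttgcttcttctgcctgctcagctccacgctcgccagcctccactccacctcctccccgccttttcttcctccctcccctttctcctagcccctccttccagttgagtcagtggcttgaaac
Ntsr2: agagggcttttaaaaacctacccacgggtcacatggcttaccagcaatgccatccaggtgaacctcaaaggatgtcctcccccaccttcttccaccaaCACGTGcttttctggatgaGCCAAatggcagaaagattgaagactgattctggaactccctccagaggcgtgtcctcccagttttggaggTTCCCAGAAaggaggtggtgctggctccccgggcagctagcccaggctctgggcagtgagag

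The motifs searched, on both strands of that window, were the nuclear factor I half-site TTGGC, the STAT site TTCNNNGAA and the E-box CACGTG. Nuclear factor I and STAT proteins take part in the making of astrocytes from progenitors. The Ppp1r3c window holds 1 E-box, that of Mlc1 holds 1 TTGGC, and that of Ntsr2 holds 1 match of each motif, where TTGGC reads as its complement GCCAA on the strand shown. The windows of Mfge8 and Gja1 hold no match, which says only that these letters are not in these windows. Of the 33 genes, 30 had at least 1 entry, with 41 windows in all. TTGGC was in 17 of the 41 (41.5%), the same share as in all 32851 windows of this length (41.5%). The STAT site was in 6 (14.6%, against 7.02% of all windows), those of Acsbg1, Agt, Aldoc, Ntsr2, Pla2g7 and Slc1a3, and the E-box in 2 (4.88%, against 6.02%). The genes with a STAT match include estimates on both sides of 0.

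Glutamate uptake and amino acid handling showed no gene whose groups separated. Slc1a2 (GLT-1), the main glutamate transporter of the adult forebrain, stood at 4.43, 4.30, 4.39 and 4.42 in Ts1Cje and at 4.56, 4.47, 4.22 and 4.46 in wild-type. The groups overlap, and the difference was -0.04 (SE 0.08, limma adjusted p = 0.884). Its 95% interval ran from -0.22 to 0.14. Its further probes gave -0.02 and -0.06. Slc1a3 (GLAST), the second astrocyte glutamate transporter, stood at 4.24, 4.39, 4.33 and 4.39 in Ts1Cje and at 4.47, 4.28, 4.47 and 4.31 in wild-type. Its difference was also -0.04 (SE 0.07, 95% interval -0.20 to 0.11). Glul, the glutamine synthetase that turns the captured glutamate into glutamine, gave -0.01 (SE 0.08, 95% interval -0.19 to 0.18). Slc7a10, an exchanger of small neutral amino acids such as D-serine and glycine, gave -0.15 (SE 0.15) and ranged from 0.90 to 1.52 over the Ts1Cje arrays. The 4 genes had a median difference of -0.04, which was -0.0099 without wild-type replicate 1.

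The group for water, gap junctions and ion transport held Mlc1 and Gja1, and 6 of its 7 estimates were below 0, with a median of -0.12. That median was -0.069 without Ts1Cje replicate 4 and -0.079 without Ts1Cje replicate 2, and -0.063 and -0.18 within the rows of the slide. Aqp4, the water channel of the endfeet, stood at 1.45, 1.98, 2.13 and 2.20 in Ts1Cje and at 1.92, 2.16, 2.32 and 2.12 in wild-type. Replicate 1 was the lowest array of both groups, and the groups overlap, with a difference of -0.19 (SE 0.17, 95% interval -0.57 to 0.20). The other Aqp4 probe gave -0.26 (SE 0.14). Without Ts1Cje replicate 1 the Aqp4 difference shrank to -0.02, and without wild-type replicate 1 it was -0.26. Each of these fits keeps the low replicate 1 of the other group, so neither can show whether the difference rested on Ts1Cje replicate 1. Hepacam, the adhesion molecule that brings Mlc1 to cell contacts, gave -0.12 (SE 0.09). Gjb6, the other astrocyte connexin, gave -0.07 (SE 0.16) with an interval of -0.44 to 0.31. The bicarbonate cotransporter Slc4a4 (0.03, SE 0.08) and the claudin Cldn10 (-0.01, SE 0.06) were near 0.

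Among the lipid genes, Clu was the only one whose groups separated. Apoe, the main lipid carrier made by astrocytes, gave -0.06 (SE 0.06, 95% interval -0.19 to 0.07). Acsbg1, an acyl-CoA synthetase, gave -0.0011 (SE 0.06). Pla2g7, which degrades platelet-activating factor, gave 0.02 (SE 0.10).

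Gfap, the reactive member of the list, did not separate the genotypes. It stood at 3.36, 3.50, 3.94 and 3.79 in Ts1Cje and at 3.53, 3.80, 3.76 and 3.77 in wild-type. The highest and the lowest of the 8 arrays were both Ts1Cje, and the difference was -0.07 (SE 0.13, 95% interval -0.37 to 0.23, limma adjusted p = 0.890). It was -0.23 in the row of replicates 1 and 2 and 0.10 in the row of replicates 3 and 4. Without Ts1Cje replicate 1 it was 0.03, without wild-type replicate 1 it was -0.13, and without Ts1Cje replicate 3 it was -0.17. Replicate 1 was the lowest Gfap array of both groups, so a fit that drops either of these arrays keeps the other. The further Gfap probes gave -0.21 (SE 0.13) for the same transcript and 0.01 (SE 0.11) for another.

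The receptors were mixed. Fgfr3, a fibroblast growth factor receptor of astrocytes and their precursors, gave -0.26 (SE 0.16, 95% interval -0.61 to 0.10) and Bmpr1b, a bone morphogenetic protein receptor, gave -0.20 (SE 0.11), and further probes gave -0.40 (SE 0.19) and -0.29 (SE 0.12). The orphan receptor Gpr37l1 gave -0.07 (SE 0.09). Plcd4, a phospholipase C, gave 0.17 (SE 0.13), on the same side as Ntsr2, and its further probe gave 0.07 (SE 0.13). Both transcription regulators had estimates below 0, at -0.16 (SE 0.10) for Sox9, which specifies glia, and -0.12 (SE 0.13) for Id4, an inhibitor of bHLH factors.

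In metabolism and metal transport, Ppp1r3c stood alone. Aldh1l1, a folate enzyme used as a general astrocyte marker, stood at 4.52, 3.86, 3.93 and 3.86 in Ts1Cje and at 4.13, 3.70, 3.79 and 3.80 in wild-type. Replicate 1 was the highest array of both groups. The Aldh1l1 difference was 0.18 (SE 0.16, 95% interval -0.19 to 0.56), and 0.02 without Ts1Cje replicate 1. That fit keeps the high wild-type replicate 1, so it cannot show whether the difference rested on Ts1Cje replicate 1. Between same-numbered arrays Ts1Cje was the higher by 0.39, 0.16, 0.13 and 0.053. Within the rows of the slide the Aldh1l1 difference was 0.27 and 0.09. Aldoc, the glycolytic aldolase of astrocytes, gave -0.0011 (SE 0.09, 95% interval -0.21 to 0.21). Ndrg2 gave 0.11 (SE 0.10), and the zinc importer Slc39a12 gave -0.09 (SE 0.09). The further Slc39a12 probe gave -0.28 (SE 0.22).

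The secreted and surface proteins had a median of -0.23, with 4 of 5 estimates below 0 and Mfge8 at the end. That median was -0.077 when Ts1Cje replicate 2 was left out, and -0.11 when wild-type replicate 3 was. Htra1, a secreted serine protease, gave -0.24 (SE 0.13, 95% interval -0.53 to 0.06), at -0.13 and -0.34 within the rows of the slide. Agt, the precursor of angiotensin, stood at 0.17, -1.04, -0.62 and -0.75 in Ts1Cje and at -0.37, -0.52, 0.02 and -0.46 in wild-type. Ts1Cje replicate 1 was its highest array and Ts1Cje replicate 2 its lowest, so the difference of -0.23 has an SE of 0.25 and an interval of -0.80 to 0.35. F3 (tissue factor), which starts blood clotting, gave -0.05 (SE 0.11) with its brighter probe and -0.26 (SE 0.16) with the other. Cst3, the protease inhibitor cystatin C, gave 0.02 (SE 0.07).

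Probes of the same gene mostly pointed the same way. Of the 33 genes, 11 had more than 1 probe, and 11 of the 14 further probes had the sign of the brightest. The 3 of other sign belonged to Gfap (0.01), Pla2g7 (-0.08, SE 0.11) and Slc4a4 (-0.02, SE 0.07), whose brightest probes were all near 0 too.

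A score per array was formed as the mean over genes of the level minus the gene's mean over the 8 arrays. Over all 33 genes it was -0.03, -0.10, -0.05 and -0.004 on the Ts1Cje arrays and 0.07, -0.01, 0.10 and 0.03 on the wild-type arrays. Ts1Cje was lower by 0.09 on average (-0.045 ± 0.039 against 0.045 ± 0.048, SD, n = 4), but the groups overlap, since wild-type replicate 2 lay below Ts1Cje replicate 4. The size depended on the scaling. With quantile normalization 23 genes were below 0 and their median was -0.04, and with the array median as centre these were 29 genes and -0.12, where the median of all features moved to -0.06. Without wild-type replicate 3, 24 genes were below 0 with a median of -0.05, and without Ts1Cje replicate 1 these were 23 genes and -0.06.

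The score overlapped between genotypes in each of the 8 role groups. Its difference was -0.19 for secreted and surface proteins, -0.14 for the transcription regulators, -0.13 for water, gap junctions and ion transport, -0.07 for Gfap alone, -0.06 for glutamate uptake, -0.05 for lipid handling, -0.04 for metabolism and -0.03 for receptors. In the secreted group the scores ran from -0.25 to 0.06 in Ts1Cje and from -0.02 to 0.23 in wild-type. In the group for water, gap junctions and ion transport they ran from -0.11 to -0.01 and from -0.02 to 0.20. Wild-type replicate 3 was the highest array in both groups of genes.

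**Figure D3:**
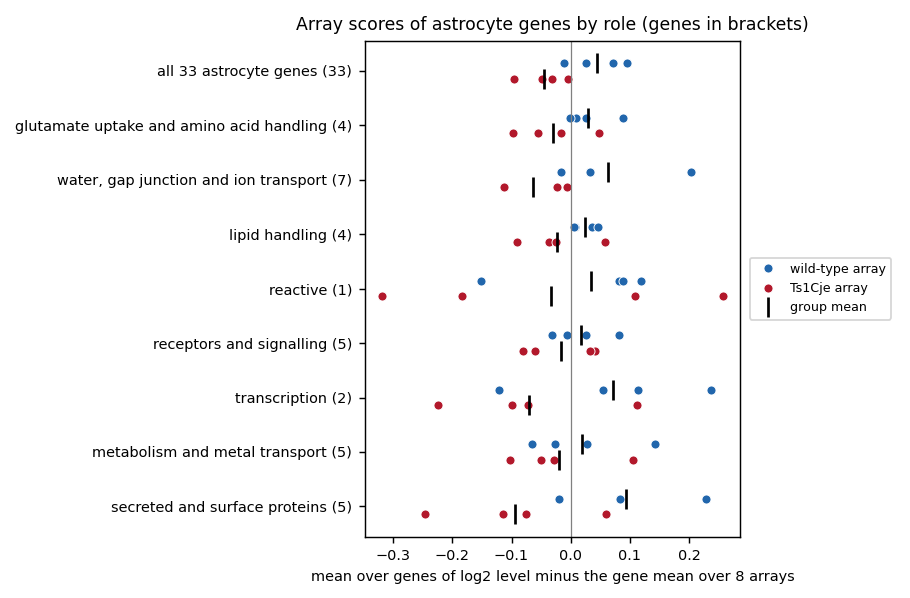
Score of all 33 genes and of each role group on each array (x axis, mean over genes of the log2 level minus the gene's mean over the 8 arrays), with blue points for wild-type arrays, red points for Ts1Cje arrays and bars for the group means. The Ts1Cje bars lie to the left of the wild-type bars in all 8 groups, and the points of the genotypes overlap in each.

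The 33 genes did not vary together as 1 block over the arrays. Ts1Cje replicate 1 held the highest of the 8 values at 6 genes (Glul, Hepacam, Aldh1l1, Aldoc, Ndrg2 and Agt) and the lowest at 10, among them Slc1a3, Aqp4, Gja1, Mlc1 and Gfap. These 16 genes are 48.5% of the 33, where the same array was highest or lowest at 27.4% of all features. Wild-type replicate 3 was highest or lowest at 15 of the 33 (45.5%), near its share over all features (44.8%). The direction differed, since it was the highest at 11 genes (33.3%, against 19.3% of all features) and the lowest at 4 (12.1%, against 25.6%). Within Ts1Cje the astrocyte genes had a median SD of 0.156 (from 0.039 for Acsbg1 to 0.520 for Agt), against 0.099 over all features. Within wild-type the values were close, at 0.129 (from 0.025 for Hepacam to 0.304 for Fgfr3) against 0.120.

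Other genes of the same roles were read in 7 further lists with 89 genes, of which 82 were tested and 0 passed an adjusted p of 0.05 in limma. At an unadjusted p under 0.05 there were 6 lower and 3 higher, together 9 of the 82, where all features had such a p at 8.73%. The 3 lists of reactive astrocytes held 30 tested genes, of which 21 lay above 0 (70.0%, against 47.3% of all features). In the inflammation-type list 10 of 11 tested genes were above 0, with a median of 0.11. Its H2-D1, a class I histocompatibility gene, stood at 2.44, 2.18, 2.18 and 2.18 in Ts1Cje and at 2.12, 1.84, 1.87 and 1.70 in wild-type, a difference of 0.37 (SE 0.10, limma adjusted p = 0.345) with no overlap. Psmb8, an immunoproteasome subunit, gave 0.30 (SE 0.14), and its groups overlap. The score of this list was highest on replicate 1 in both groups (0.29 and 0.13) and overlapped between genotypes.

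In the pan-reactive list, of genes known to rise in inflammation and in ischaemic injury alike, 6 of 11 tested genes were above 0 (median 0.04), and the arrays differed far more than the genotypes. Its score was 0.59 on Ts1Cje replicate 1 and 0.31 on wild-type replicate 1, while the other arrays lay between -0.42 and -0.04. Much of this came from 1 gene, Lcn2 (lipocalin 2): without it the score was 0.34 on Ts1Cje replicate 1 and 0.09 on wild-type replicate 1, with the other arrays between -0.34 and 0.02. The smallest p values belonged to the cytokine receptor Osmr (0.23, SE 0.23) and the chemokine Cxcl10 (0.39, SE 0.40). In the injury-type list, 5 of 8 tested genes were above 0 (median 0.08), while the genes of smallest p were on the other side. S100a10, a calcium-binding protein family member, gave -0.22 (SE 0.06, limma adjusted p = 0.333) with no overlap, and Cd109, a surface glycoprotein, gave -0.26 (SE 0.10).

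The further genes of the glutamate and glutamine cycle had a median of -0.03 over 12 tested, and here the scores did not overlap, lying between -0.04 and -0.03 in Ts1Cje and between -0.02 and 0.10 in wild-type. Their smallest p values were those of the glutamate transporter Slc1a6 (-0.16, SE 0.07) and the glutamine transporter Slc38a2 (-0.29, SE 0.15). Potassium, sodium and water genes had a median of -0.05 over 12 tested. Atp1b2, the beta subunit of the astrocyte sodium pump, stood at 5.10, 5.05, 5.11 and 5.13 in Ts1Cje and at 5.24, 5.28, 5.24 and 5.29 in wild-type, a difference of -0.17 (SE 0.04, limma adjusted p = 0.332). Clcn2, the chloride channel that is a partner of Hepacam, gave 0.21 (SE 0.06, limma adjusted p = 0.409). Neither gene overlapped between the groups.

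The further lipid genes had a median of -0.02 over 12 tested. Lcat, which esterifies cholesterol on lipid particles, gave 0.28 (SE 0.07, limma adjusted p = 0.328) and the fatty acid binding protein Fabp5 gave -0.19 (SE 0.07), both without overlap. Genes of astrocyte fate and of Notch and bone morphogenetic protein signalling had a median of -0.09, with 11 of 16 below 0. The nuclear factor I genes Nfia (-0.19, SE 0.08, limma adjusted p = 0.550) and Nfix (-0.13, SE 0.05, limma adjusted p = 0.559) had the smallest p of that list. The groups overlap in both. The other nuclear factor I gene of the list, Nfib, gave -0.06 (SE 0.05), and its groups overlap too.

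Markers of other cells of the hippocampus were read in 14 lists, of which 78 genes were tested and 0 passed an adjusted p of 0.05 in limma. Medians were near 0 for neurons (-0.02), mature oligodendrocytes (-0.02), microglia (-0.02) and interneurons (0.02). They were -0.10 for CA1, -0.09 for dentate granule cells, -0.13 for oligodendrocyte precursors, -0.16 for stem cells and progenitors and 0.10 for endothelial cells. The ependymal list, whose cells line the ventricles beside the hippocampus, had a median of -0.39, with 5 of 6 genes below 0. Its score was -0.24, -0.40, 0.06 and -0.16 in Ts1Cje and 0.19, 0.26, -0.02 and 0.30 in wild-type. The Ts1Cje arrays other than replicate 3 lay below all 4 wild-type arrays. The choroid plexus list had a median of -0.15 over 5 genes, with scores between -0.25 and 0.11 in Ts1Cje and between -0.22 and 0.38 in wild-type. The part of these cells in the astrocyte values was not tested. Ts1Cje replicate 1, the array with the most extreme astrocyte values, also had the highest endothelial score (0.32) and the lowest score for stem cells and progenitors (-0.45), and the part of these cells in its values was not tested either.

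**Figure D4:**
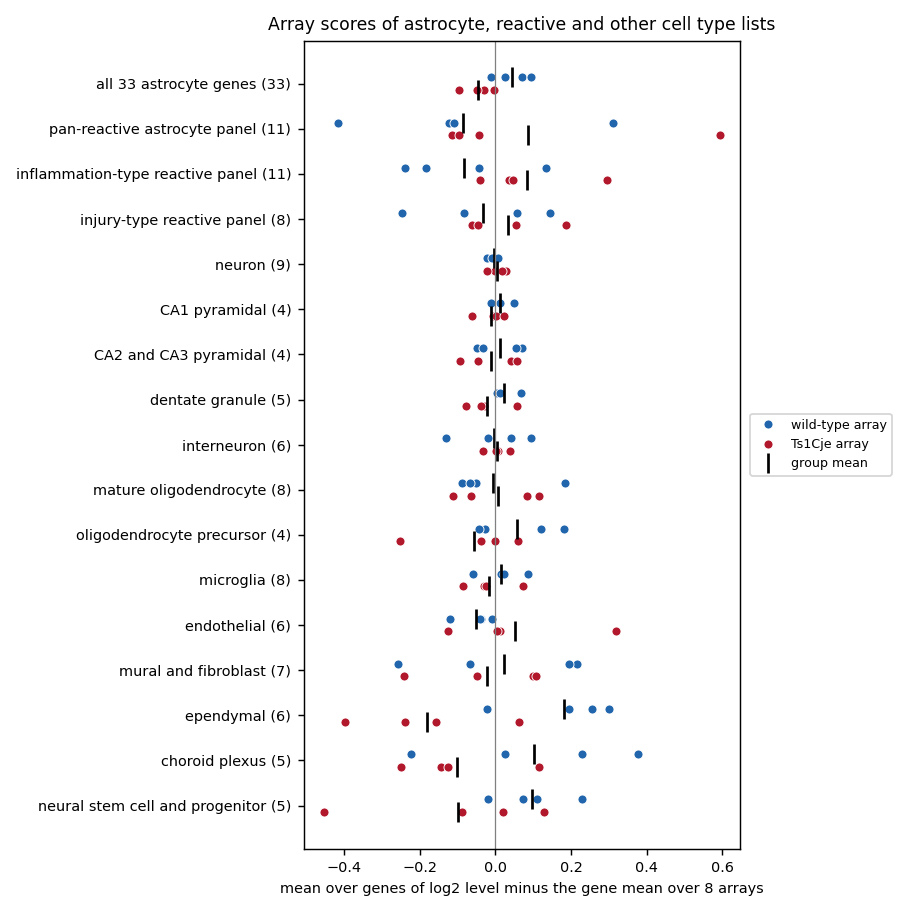
Score of the astrocyte genes, the 3 reactive lists and 13 cell type lists on each array (x axis, mean over genes of the log2 level minus the gene's mean over the 8 arrays), with blue points for wild-type arrays, red points for Ts1Cje arrays and bars for the group means. Neuron scores stay near 0, 3 of the 4 Ts1Cje arrays lie left of all wild-type arrays in the ependymal list, and 1 array of each group, replicate 1, stands far to the right in the pan-reactive list.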

How the data were processed

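Total RNA of hippocampus was labelled with Cy3 and hybridised to 8 one-colour Agilent arrays, 4 per genotype, per the labels' protocols. The deposited values are linear spot intensities from Feature Extraction 10.10.1.1, per the file headers: a background-corrected processed signal, not normalized between arrays, and the median signals of spot and background, used in 1 alternative. The probes were designed on mm9, per the file headers.

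Outlier spots were dropped, spots of a probe were averaged as log2, and each array's 75th percentile was subtracted. A probe was kept where all 4 arrays of a genotype were well above background (32596 of 55681) and named by accession through a RefSeq table (GRCm38.p6; 27235 probes, 20660 symbols). The brightest kept probe stands for a gene. Groups were compared in limma 3.58.1 (R 4.3.3, lmFit and eBayes, no block), with Benjamini-Hochberg adjustment over 24025 features. The fit was tested on simulated data. P-values measure the spread between mice of 1 slide.

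The members and lists were chosen with earlier results of these data known, so lists are described by counts and medians without a test. Every member is named; all arrays are given for members with an unadjusted p under 0.05, 6 defining markers and the largest increase, and for Agt and Lcn2, singled out with Cp after their values were seen. Of each further list the 2 genes of smallest p are named, with Nfib added beside Nfia and Nfix. Among these, all arrays are printed only for H2-D1 and Atp1b2, and not for others without overlap, such as S100a10 and Lcat. Plots were drawn with matplotlib 3.10.9.

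Alternatives were quantile normalization, centring on the array median, normexp on median signals (offset 50), 2 probe filters, the mean over probes, array weights, a trended and robust prior, replicate number and slide row as blocks, each slide row alone, and each array left out. The pan-reactive list without Lcn2 was added after seeing the data. The labels do not say whether the replicate number marks a pair, so the main fit has no block. In their deviations from the group means, same-numbered arrays correlated at 0.237, 0.194, 0.106 and 0.05. Differently numbered arrays of the 2 genotypes correlated at -0.258 to 0.141. These values do not settle whether same-numbered mice are littermate pairs.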

Additional observations from a re-analysis of the deposited data

Results flagged for a closer look

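In 82 sets of 4 arrays (the 33 genes and the scores, in each genotype), 6 had 1 array far from the other three by Dixon's ratio of gap to range, past its 95% critical value. Chance flags about 1 set in 20, or 4.1 of the 82. Wild-type replicate 3 was the highest of its group at Gja1 (ratio 0.834; 1.03 against 0.64 to 0.71) and at Mlc1 (ratio 0.850; 5.80 against 5.67 to 5.69). Wild-type replicate 1 was the highest at Cldn10 (ratio 0.850; 2.39 against 2.20 to 2.23) and the lowest at Gfap (ratio 0.867; 3.53 against 3.76 to 3.80). In Ts1Cje, replicate 3 was the lowest at Plcd4 (ratio 0.884; 1.28 against at least 1.56) and replicate 1 the highest at Aldh1l1 (ratio 0.892; 4.52 against 3.86 to 3.93).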

How the results depend on the processing

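Over 18 alternatives with all 8 or 7 arrays, 21 of the 33 genes kept the sign of their difference in each. The other sign was taken by 36 of the 594 values, in 12 genes. In the main setting none of these 12 genes exceeded 0.07 in size, but under an alternative Gjb6 reached -0.19. The count of astrocyte genes past the threshold was 0 in all 18 alternatives but 1, Mfge8 without Ts1Cje replicate 1 (0 to 1 when each array was left out). The count over all features was 47, and 25 with the array median as centre, 23 with no filter, 84 with array weights, 71 with a trended and robust prior, 1 with the replicate block, and 0 within slide row 1 and within slide row 2; it ran from 4 to 44 when arrays were left out, with 17, 25 and 4 features when the array dropped was replicate 2, 3 or 4 of Ts1Cje, and 24 when it was replicate 2 or 4 of wild-type. The replicate block left 0 astrocyte genes past the threshold, with 7 lower and 2 higher at an unadjusted p under 0.05, where 11.2% of all features had such a p; Bmpr1b, Htra1 and Aldh1l1 were the genes gained. The median over the 33 genes was -0.12 with the array median as centre and -0.11 (without wild-type replicate 2) to -0.05 with an array left out. Group medians moved within slide row 1 to -0.10 for glutamate uptake, -0.11 for lipid handling and -0.10 for secreted proteins, which reached -0.34 in row 2 and -0.29 to -0.077 with an array left out (-0.077 without Ts1Cje replicate 2, -0.11 without wild-type replicate 3); lipid handling stood at -0.083 with the array median as centre. Among the groups with over 1 gene, secreted proteins had the lowest median in 16 of 20 alternatives and transcription regulators in 4. The cause was not tested.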

Other observations

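Replicate 1 was an extreme array of both genotypes for many of the astrocyte genes, a pattern noticed after the values were seen. It was the highest array within both groups at 7 genes (Slc1a2, Hepacam, Bmpr1b, Gpr37l1, Aldh1l1, Aldoc and Ndrg2) and the lowest within both at 5 (Slc7a10, Aqp4, Gja1, Mlc1 and Gfap). These 12 genes are 36.4% of the 33, where 18.6% of all features have replicate 1 at the same end in both groups. For replicates 2, 3 and 4 the genes at the same end in both groups were 7, 7 and 2 (21.2%, 21.2% and 6.06%, against 16.6%, 22.1% and 11.5% of all features).

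The same arrays stood apart at Lcn2, lipocalin 2, a secreted protein that rises steeply in reactive astrocytes and in inflamed vessels. Lcn2 stood at 1.92, -1.63, -1.84 and -1.83 in Ts1Cje and at 1.31, -2.33, -2.62 and -2.37 in wild-type, so replicate 1 was higher than the rest of its group by several log2 units in both genotypes. The difference between the genotypes was 0.66, with an SE of 1.13 that holds the shift of replicate 1. Between same-numbered arrays, which share a row of the slide, Ts1Cje was the higher by 0.61, 0.70, 0.78 and 0.54, and with the replicate number as a block the SE was 0.057 (limma adjusted p = 0.087). At Aldh1l1 these differences were 0.39, 0.16, 0.13 and 0.053 (limma adjusted p = 0.442 with the block). Osmr, the receptor subunit for oncostatin M, had its highest level in each group on replicate 1 as well, at 0.26 in Ts1Cje and -0.08 in wild-type, and ceruloplasmin (Cp) did so at 1.02 and 0.48. These are 3 of the 11 tested genes of the pan-reactive list. At the other 8, replicate 1 was not at the same end of both groups. Serpina3n, for instance, was the highest of its group on Ts1Cje replicate 1 (1.15) and the lowest on wild-type replicate 1 (0.39). Cxcl10 was lowest on Ts1Cje replicate 1, while Timp1 was highest on it. Gfap, another gene of reactive astrocytes, was at its lowest in each group on replicate 1, at 3.36 and 3.53.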
